A study of Mus musculus with 12 samples.

Results

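The renin-angiotensin genes described here were taken from the kidney RNA-seq of a mouse study of liver ischemia. They are the rows of the deposited gene table whose symbol is 1 of 8 names (Ren1, Agt, Ace, Agtr1a, Mas1, Enpep, Mme and Atp6ap2), and 7 of these 8 had a row among the 14091 genes of the table. Ren1, the gene of renin itself, was not analysed here. C57BL/6 mice, male by the study's methods, entered the diets at 10 weeks of age and stayed on them for 12 weeks. The normal diet (ND) held 10% fat, 20% protein and 70% carbohydrate. The high-fat, high-sucrose diet (HFD), which makes the liver fatty, held 29% fat, 12.6% protein and 46.2% carbohydrate. Whether these are shares of weight or of energy is not stated, so the diets may not be on the same scale. The mice then had either a sham procedure or hepatic ischemia-reperfusion injury (hIRI). In hIRI the vessels to part of the liver were clamped for 60 min, and all kidneys were taken at 6 h. This gave 4 groups of 3 kidneys, namely ND + sham, HFD + sham, ND + hIRI and HFD + hIRI. Wild-type mice were used throughout, and each library was taken as 1 mouse. The kidney itself was never clamped. The diet reached the kidney as well as the liver, so the part of a fatty liver and that of the diet in the kidney cannot be told apart. The genes were selected on their read counts in these same 12 kidneys, with earlier results known, so that their levels and differences describe these kidneys and are no independent test of the pathway.

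The renin-angiotensin system raises blood pressure and retains salt. Angiotensinogen, the substrate, is cut by renin from the juxtaglomerular cells to angiotensin I, and angiotensin-converting enzyme (ACE) trims this to angiotensin II, which acts on the AT1 receptor. Other membrane peptidases take the peptides apart. Aminopeptidase A (gene Enpep) removes the first residue of angiotensin II, neprilysin (gene Mme) makes shorter peptides, and the MAS receptor (gene Mas1) answers one of these with effects largely opposed to those of AT1. The (pro)renin receptor, gene Atp6ap2, binds renin and its precursor and is also an accessory subunit of the vacuolar proton pump. In the kidney, ACE, aminopeptidase A and neprilysin all sit on the brush border of the proximal tubule, which also makes angiotensinogen.

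The libraries held 20874584 to 29451344 counts each. They fell along a first principal component with 54.4% of the variance, on which HFD + hIRI replicate 1 stood farthest out at 97.4, followed by replicate 2 of that group at 44.9, while ND + hIRI replicate 1 lay at -26 among the sham kidneys, between -37.9 and -18.5. ND + sham replicate 2 and ND + hIRI replicate 2 were also apart, with Wdfy1 at 23.1 and 34.8 CPM (counts scaled to library size) against 98.0 to 125 CPM in the other 10 libraries, and Nnt at 141 and 123 CPM against 191 to 353 CPM. Nnt carries a deletion in the C57BL/6J substrain that C57BL/6N lacks, and the labels name no substrain. The part of substrain in the results was not tested. Wdfy1 and Nnt were singled out after their values were seen. The main differences are also given without HFD + hIRI replicate 1 and ND + hIRI replicate 1, and without the pair low in Nnt.

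The start regions of the 3 genes whose levels differed most are shown because these are the stretches from which the transcripts begin. RefSeq windows (GRCm38.p6, 250 bases before to 50 bases after an annotated start, 300 bases in all) were matched to 6 of the 7 genes, with 9 windows between them. Capitals mark matches on either strand to the TATA box (searched as TATAAA). They also mark the GC box, searched as GGGCGG. The CCAAT box is marked likewise, and positions count from the start site. The lines give Agt (chr8:124569657-124569956, minus strand), Ace at its first annotated start (chr11:105967698-105967997, plus strand), Ace at its internal start (chr11:105974939-105975238, plus strand), which is known to serve the testis form of the enzyme, and Mas1 (chr17:12868094-12868393, minus strand).
Agt: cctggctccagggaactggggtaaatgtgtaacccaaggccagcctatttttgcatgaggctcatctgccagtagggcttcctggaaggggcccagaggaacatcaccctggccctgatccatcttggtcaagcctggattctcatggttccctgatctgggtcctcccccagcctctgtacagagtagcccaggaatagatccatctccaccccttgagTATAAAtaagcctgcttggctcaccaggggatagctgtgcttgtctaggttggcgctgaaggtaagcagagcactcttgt
Ace, first start: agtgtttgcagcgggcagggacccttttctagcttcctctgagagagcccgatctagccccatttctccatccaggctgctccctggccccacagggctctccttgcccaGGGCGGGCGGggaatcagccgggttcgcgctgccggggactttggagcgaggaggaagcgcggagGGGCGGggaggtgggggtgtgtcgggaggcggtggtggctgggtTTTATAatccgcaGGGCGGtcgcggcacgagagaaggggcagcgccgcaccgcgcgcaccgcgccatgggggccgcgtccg
Ace, internal start: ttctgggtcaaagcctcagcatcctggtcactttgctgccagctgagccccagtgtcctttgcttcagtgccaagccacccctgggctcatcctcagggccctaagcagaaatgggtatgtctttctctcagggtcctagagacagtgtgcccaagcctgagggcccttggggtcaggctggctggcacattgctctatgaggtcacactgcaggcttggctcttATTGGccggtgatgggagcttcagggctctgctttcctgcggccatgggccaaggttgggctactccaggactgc
Mas1: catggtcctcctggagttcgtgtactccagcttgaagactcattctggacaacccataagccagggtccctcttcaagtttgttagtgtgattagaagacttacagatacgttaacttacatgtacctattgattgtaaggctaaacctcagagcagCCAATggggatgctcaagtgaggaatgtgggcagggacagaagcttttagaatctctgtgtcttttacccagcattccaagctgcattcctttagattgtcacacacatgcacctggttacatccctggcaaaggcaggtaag
The Agt window held 1 TATA box, from -30 to -25. The first Ace window held a TATA box on the reverse strand from -31 to -26 and 4 GC boxes, the 2 upstream ones overlapping each other, whereas the internal Ace window and the Mas1 window each held 1 CCAAT box and neither of the other motifs. Of all 32851 windows of this length, 13.6% held the TATA box, 35.7% the GC box and 37.4% the CCAAT box. A glucocorticoid receptor core motif, searched as TGTTCT, was in none of these 4 windows and in 19.0% of all. The matches are letters in a window and were not tied to any measured binding.

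Compared per base of transcript, the 7 genes spanned a wide range of levels. In ND + sham kidneys the highest levels, as reads scaled to transcript length and library size (RPKM), belonged to Enpep at 61.0 ± 13.7 (SD, n = 3), Atp6ap2 at 56.6 ± 4.16 and Ace at 56.5 ± 9.36, and the ranges of these 3 overlapped. Mme at 38.3 ± 3.22 RPKM and Agt at 33.5 ± 3.31 RPKM came next, with ranges that overlapped each other but not those above. Agtr1a stood below them at 15.9 RPKM (14.2 to 16.9), and Mas1 at 0.810 ± 0.226 RPKM was last. In HFD + hIRI kidneys the order had moved. Agt at 69.3 ± 23.3 RPKM, Atp6ap2 at 69.0 ± 6.45 RPKM and Enpep at 59.9 ± 3.80 RPKM overlapped at the top, Ace had come down to 21.5 ± 5.21 RPKM, a range that overlapped both Mme at 28.6 ± 4.31 RPKM and Agtr1a at 13.0 ± 4.86 RPKM, and Mas1 stood at 0.0377 ± 0.0205 RPKM. Mas1 was among the scarcest genes measured, with 241 reads in all 12 libraries together and only 4.24% of genes below it by mean CPM. It was in the table through the ND kidneys, where nearly all of these reads lay.

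**Figure D1:**
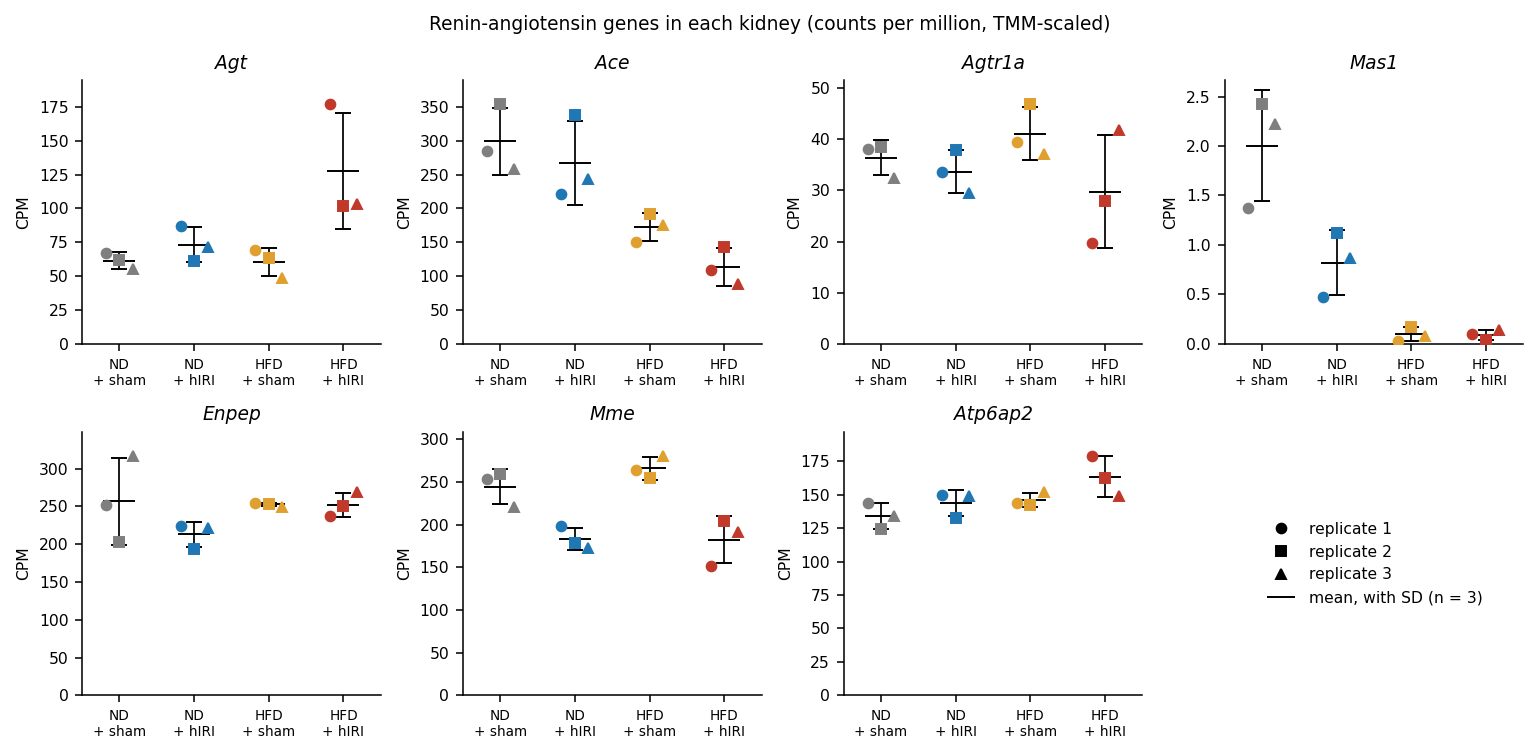
Level of the 7 renin-angiotensin genes in each of the 12 kidneys, in CPM (linear axes from 0). Symbols are single kidneys by replicate number, dashes group means and bars SD (n = 3). In the 3 HFD + hIRI kidneys Ace lay between 88.2 and 143 CPM and Agt between 102 and 177 CPM.

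Differences were tested with edgeR's quasi-likelihood test on all 12 libraries and adjusted over all 14091 genes, and a gene was called at an adjusted p under 0.05. Between HFD + hIRI and ND + hIRI kidneys 2 of the 7 genes were called, Ace and Mas1, both lower, where 1.35% of all genes were called, 0.532% higher and 0.816% lower. This background moved widely with the test and the libraries, from 75 genes higher and 115 lower to 538 and 564 with edgeR's likelihood ratio test, 937 and 841 with DESeq2, 1473 and 1086 without HFD + hIRI replicate 3 and 2 and 2 without ND + hIRI replicate 2. Between HFD + sham and ND + sham the call was Mas1 alone, lower, against 0.0142% of all genes, which were all lower. Between HFD + hIRI and HFD + sham 2 were called, Agt higher and Mme lower, and 19.9% of all genes were called (11.4% higher and 8.47% lower), so that calls were common there. Between ND + hIRI and ND + sham none was called, where 0% of all genes were called, although 2 of the 7 had an unadjusted p under 0.05 and DESeq2 called 1, Mme. Over all genes DESeq2 called 298 higher and 146 lower there, and edgeR 339 and 192 without ND + hIRI replicate 1. Averaged over surgery, HFD kidneys were lower in Mas1 and Ace (2.75% of all genes called, 1.1% higher and 1.65% lower), and averaged over diet, hIRI kidneys were higher in Agt and lower in Mme (23.7% of all genes called, 12.9% higher and 10.9% lower). The diet difference of the hIRI response, which is the interaction, was called for none of the 7 by edgeR, with 1 at an unadjusted p under 0.05 and 0.0142% of all genes called (0.0071% in each direction). The comparisons share groups with each other. Counts over these 7 genes are descriptions, since Mas1 was in the table only through its reads in ND kidneys.

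**Figure D2:**
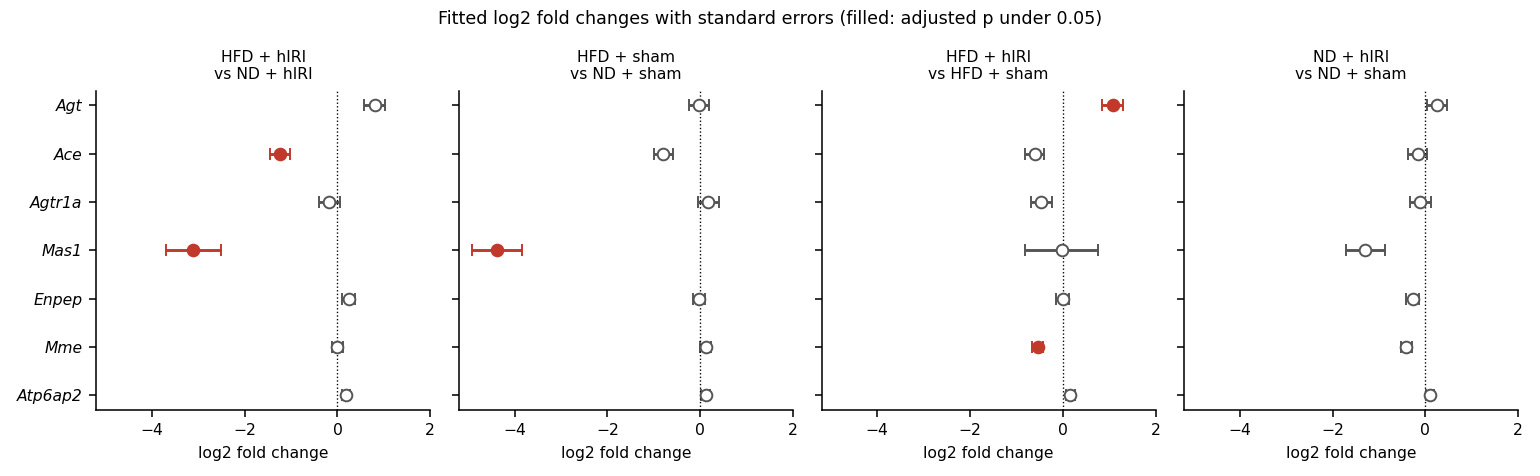
Fitted log2 fold change (horizontal axis) of the 7 genes in the 4 pairwise comparisons, with standard errors as bars and filled points where the adjusted p was under 0.05 (edgeR). Mas1 at -4.37 and -3.11 and Ace at -1.24 were the filled points on the low side of the 2 diet comparisons, and Agt at 1.07 and Mme at -0.54 those of HFD + hIRI against HFD + sham.

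Agt, the gene of angiotensinogen (chromosome 8, 124556587 to 124569707, minus strand), was higher after hIRI in HFD kidneys. It was at 69.3, 63.5 and 48.7 CPM in the 3 HFD + sham kidneys and at 177, 102 and 103 CPM in the 3 HFD + hIRI kidneys. These groups did not overlap, which held upward for 23.1% of all genes in this comparison, and replicate 1, the kidney farthest out on the first component, was the highest. The log2 fold change was 1.07 (SE 0.22, adjusted p = 0.0179, edgeR). ND + sham kidneys held 67.2, 62.3 and 55.1 CPM and ND + hIRI kidneys 86.8, 61.1 and 71.6 CPM, which overlapped, with a log2 fold change of 0.25 (SE 0.22, adjusted p = 0.615). HFD + hIRI kidneys also lay above all ND + hIRI kidneys, as 12.2% of all genes did, but the difference of 0.80 (SE 0.22) had an adjusted p of 0.0792 and was not called by edgeR's quasi-likelihood test. It was called by edgeR's likelihood ratio test on the same libraries (adjusted p = 0.0196), by DESeq2, and by the quasi-likelihood test without HFD + hIRI replicate 3 (adjusted p = 0.0292). The 2 responses to hIRI differed by 0.82 (SE 0.31) on the log2 scale, which was not called either (adjusted p = 0.486). Leaving out HFD + hIRI replicate 1 and ND + hIRI replicate 1 together left Agt 0.76 higher in HFD + hIRI than in HFD + sham (adjusted p = 0.00739, edgeR). The call was lost without any 1 of the HFD + sham replicates 1, 2 and 3, up to an adjusted p of 0.0765, fits in which the genes called over the whole table went from 1607 higher and 1194 lower to 155 and 121, 1 and 0, and 22 and 23. Averaged over diet the rise of 0.66 (SE 0.16, adjusted p = 0.0179) was called in each of 12 fits that left out 1 library.

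The liver is the main source of circulating angiotensinogen, and genes of liver cells were read in these kidneys at levels that did not move together. Of 10 liver markers 8 were measured, none of them at 0 throughout, and their summed level was 1545 to 1757 CPM in HFD + hIRI kidneys against 576 to 1105 CPM in the other 9. Most of that sum came from Apob, a lipoprotein gene that the kidney transcribes too, at 1339 ± 77.7 CPM against 710 ± 64.8 CPM in HFD + sham (log2 0.92, SE 0.17, adjusted p = 0.0151). Ttr (66.0 to 338 CPM over the 12 kidneys) and Serpina1a came next. Serpina1a has near-identical copies that could share its reads. It was at 53.0 to 62.2 CPM in HFD + hIRI and 28.8 to 39.3 CPM in HFD + sham kidneys. These did not overlap, as held upward for 23.1% of all genes, and the difference of 0.76 (SE 0.43, adjusted p = 0.211, edgeR) was not called. Apob was the only 1 of the 8 called in this comparison, and 6 of the 8 had a fitted change above 0, with a median of 0.05. Alb, the gene of albumin, was named here after its values were seen. It was at 15.5 to 18.4 CPM in HFD + hIRI kidneys and 13.9 to 21.5 CPM in HFD + sham kidneys. The liver list's part in the Agt result was not tested beyond these levels.

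Among 15 genes that are known to act on the Agt promoter or upstream of it, 5 rose and 1 fell between HFD + sham and HFD + hIRI, where 11.4% of all genes were called higher and 8.47% lower, with a median log2 fold change of -0.06 against -0.01 for all genes tested. The risers were Stat3 (1.87, SE 0.31) and Cebpb (1.46, SE 0.27), transcription factors of the acute phase, Rela (1.53, SE 0.39), a subunit of NF-kB, Socs3 (3.15, SE 0.69), the feedback inhibitor of STAT3, and 1 more. Esr1, the estrogen receptor, fell by 1.20 (SE 0.26). None of the 15 was called in ND + hIRI against ND + sham, where Stat3 was 1.60 higher (SE 0.30, adjusted p = 0.118, edgeR), and 5 had an unadjusted p under 0.05. Averaged over surgery Cebpb was 1.21 higher in HFD kidneys (SE 0.19, adjusted p = 0.0168). The count of 6 calls ranged from 0 to 11 when 1 library was left out and was 0 without HFD + sham replicate 2 or 3.

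Ace (chromosome 11, 105967945 to 105989964, plus strand) was lower in HFD kidneys under both surgeries. It was at 285, 354 and 258 CPM in ND + sham kidneys and at 221, 338 and 243 CPM in ND + hIRI kidneys. HFD + sham kidneys held 150.0, 192 and 175 CPM and HFD + hIRI kidneys 109, 143 and 88.2 CPM. Within each surgery every HFD kidney lay below every ND kidney, and replicate 2 was the highest of the 3 in each of the 4 groups. In HFD + hIRI against ND + hIRI the log2 fold change was -1.24 (SE 0.21, adjusted p = 0.0300, edgeR), a level 2.36-fold lower, and 11.5% of all genes were lower without overlap there. In HFD + sham against ND + sham it was -0.79 (SE 0.21), the groups did not overlap (12.5% of all genes were lower without overlap), and the adjusted p was 0.325, so that the gene was not called. Ace was also lower without overlap in HFD + hIRI than in HFD + sham, as were 23.6% of all genes, by 0.60 on the log2 scale (SE 0.21, adjusted p = 0.0583), which crossed the threshold without ND + hIRI replicate 2 or HFD + hIRI replicate 2 (adjusted p down to 0.0454). In ND kidneys hIRI left the groups overlapping at -0.16 (SE 0.20, adjusted p = 0.732).

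Averaged over surgery, Ace was 1.02 lower on the log2 scale in HFD kidneys (SE 0.15, adjusted p = 0.0116), and the 12 fits that left out 1 library gave adjusted p-values from 0.00977 to 0.0453. The ND libraries with low Nnt and Wdfy1 held the highest Ace, and without both the difference was -0.84 with an adjusted p of 0.0502, just outside the threshold. The pairwise call in hIRI kidneys was lost without ND + sham replicate 1, ND + hIRI replicate 2, any 1 of HFD + sham replicates 1 to 3 or HFD + hIRI replicate 1 (adjusted p up to 0.0899, log2 fold changes from -1.44 to -1.03), and its value was -1.33 (adjusted p = 0.0561) without HFD + hIRI replicate 1 and ND + hIRI replicate 1 together. Without the pair low in Nnt it was -1.03 (adjusted p = 0.115). The interaction for Ace was -0.44 (SE 0.29, adjusted p = 0.561).

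The other brush border peptidases kept to patterns of their own. Enpep, aminopeptidase A (chromosome 3, 129269177 to 129332749, minus strand), held 251, 202 and 317 CPM in ND + sham kidneys, 225, 194 and 221 CPM in ND + hIRI kidneys, 254, 253 and 249.6 CPM in HFD + sham, and in HFD + hIRI 237 CPM in replicate 1 and 269 CPM in replicate 3 with replicate 2 between them. The HFD groups overlapped. Each HFD + hIRI kidney was above each ND + hIRI kidney, as held for 12.2% of all genes, but the difference was 0.24 (SE 0.14, adjusted p = 0.275, edgeR). Enpep was not called anywhere. Mme, neprilysin, lies on chromosome 3 (63295435 to 63383713, plus strand). It stood at 264, 254 and 281 CPM in HFD + sham kidneys and at 151, 204 and 192 CPM in HFD + hIRI kidneys. The fall was 0.54 on the log2 scale (SE 0.12, adjusted p = 0.0193, edgeR) without overlap, as held downward for 23.6% of all genes. In ND kidneys it went from 253, 259 and 221 CPM after sham surgery to 198, 178 and 173 CPM after hIRI. These did not overlap (10.7% of all genes were lower without overlap there), and the log2 fold change of -0.42 (SE 0.12) had an adjusted p of 0.184.

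Averaged over diet Mme was 0.48 lower after hIRI (SE 0.083, adjusted p = 0.00774) and was called in all 12 fits that left out 1 library. Its averaged diet difference was 0.06 (SE 0.083, adjusted p = 0.681) and was not called. The call within HFD kidneys was lost without any 1 of HFD + sham replicates 1 to 3, up to an adjusted p of 0.0765. In ND kidneys Mme was called once HFD + hIRI replicate 1 and ND + hIRI replicate 1 were left out together (-0.48, adjusted p = 0.00912, edgeR). Anpep, aminopeptidase N, which trims the peptides further, was 0.64 lower in HFD + hIRI than in HFD + sham (SE 0.18, adjusted p = 0.0340), a call that did not outlast the loss of any HFD + sham replicate 1 to 3 or of HFD + hIRI replicate 2 (adjusted p up to 0.111), nor that of the pair low in Nnt (adjusted p = 0.0630).

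Of the markers of the proximal tubule, the cell that carries these peptidases, some were lower in the same groups and most were not called. Their summed level over 20 of 20 markers, led by Kap, Acsm2 and Slc34a1 and with none at 0 throughout, was 47150 to 63970 CPM in ND + sham, 46450 to 62390 CPM in ND + hIRI kidneys, 45730 to 48300 CPM in HFD + sham and 35550 to 43080 CPM in HFD + hIRI kidneys. Averaged over surgery 5 of the 20 were lower and none higher in HFD kidneys (1.65% of all genes called lower), with a median of -0.34 against 0.01 for all genes. They were Acsm3 (-2.67, SE 0.36), an acyl-CoA synthetase, Aqp1 (-0.47, SE 0.079), a water channel, Mep1a (-0.46, SE 0.083), a brush border protease, Acsm2 (-0.45, SE 0.099) and 1 more. In HFD + hIRI against ND + hIRI Acsm3 (-2.60, SE 0.50) and Aqp1 (-0.68, SE 0.11) were the 2 called, where 0.816% of all genes were called lower. After hIRI, averaged over diet, 6 of the 20 were lower and none higher (10.9% of all genes called lower), with a median of -0.20, among them Aqp1 (-0.55, SE 0.079), Keg1 (-0.77, SE 0.19), Slc7a13 (-0.76, SE 0.21), an amino acid transporter, and Slc5a12 (-0.83, SE 0.26), a lactate transporter. Between HFD + sham and HFD + hIRI Aqp1 (-0.76, SE 0.11) and Slc7a13 (-1.05, SE 0.30) were lower, with a median of -0.28. That share was near the 8.47% of all genes called lower. There 5 of the 20 had a fitted change above 0, the largest Slc22a6 (0.38, SE 0.13, adjusted p = 0.0624, edgeR). Averaged over surgery 3 had one, the largest Slc22a8 (0.60, SE 0.16, adjusted p = 0.0686, edgeR). Kap, at a mean of 18560 CPM, weighs most in the sum. The tubular injury markers, 13 of 13 measured, summed to 5322 to 21970 CPM in HFD + hIRI kidneys, 1233 to 5277 CPM in ND + hIRI and 1272 to 1592 CPM in the 2 sham groups. The part of these shifts in the differences of Ace, Mme and Anpep was not tested, and in whole kidney RNA fewer cells of a type and less RNA per cell cannot be told apart.

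**Figure D3:**
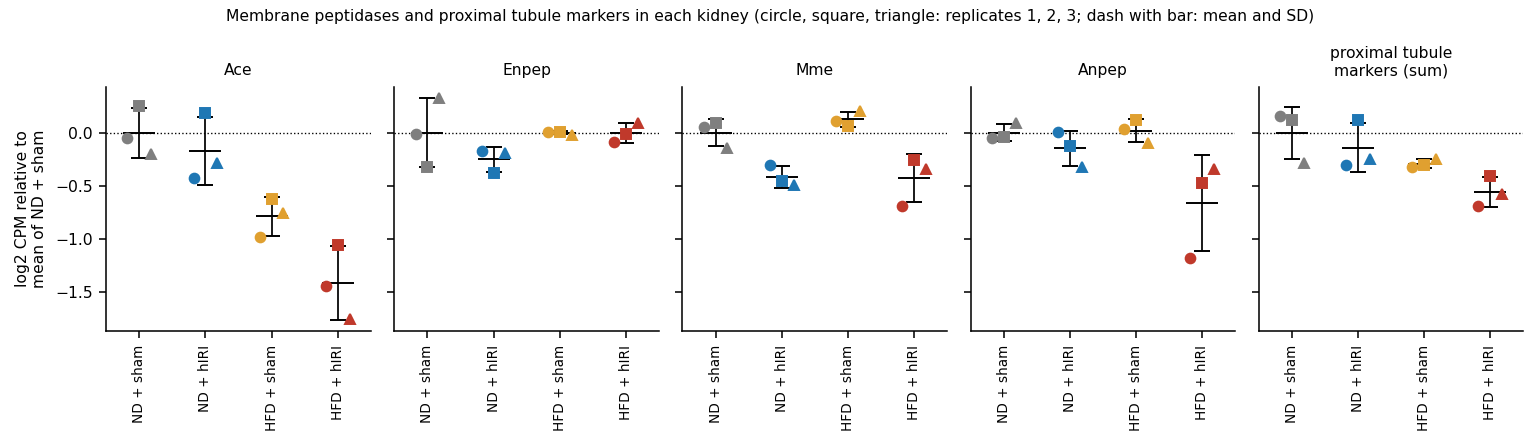
Ace, Enpep, Mme, Anpep and the summed proximal tubule markers in each kidney, as log2 CPM relative to the mean of ND + sham (0, dotted line), with group means and SD (n = 3). Ace was lower in both HFD groups (109, 143 and 88.2 CPM at the lowest). Mme lay lower in both hIRI groups, without overlap with the sham group of its diet, as did 23.6% of all genes with HFD and 10.7% with ND. The marker sum lay lowest in HFD + hIRI, between 35550 and 43080 CPM.

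Agtr1a, the main mouse AT1 receptor gene (chromosome 13, 30336356 to 30382867, plus strand), was called in no comparison and spread most in HFD + hIRI kidneys. It was at 38.2, 38.5 and 32.4 CPM in ND + sham, 33.7, 37.9 and 29.4 CPM in ND + hIRI kidneys, 39.4, 46.9 and 37.1 CPM in HFD + sham and 19.8, 27.9 and 41.7 CPM in HFD + hIRI kidneys. The first 2 HFD + hIRI kidneys were the lowest of the 12 and the third was within the sham range, so the groups overlapped in each comparison. HFD + hIRI against HFD + sham gave -0.46 (SE 0.22, adjusted p = 0.142, edgeR), and without HFD + hIRI replicate 3 the adjusted p was 0.00950 at -0.78. The other angiotensin receptor genes Agtr1b and Agtr2 were not analysed here.

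Of 21 genes of AT1 receptor signalling and trafficking, 3 rose and 3 fell between HFD + sham and HFD + hIRI (19.9% of all genes called), with a median of -0.17 against -0.01 for all genes. Rgs2, which shortens the signal of Gq-coupled receptors such as AT1, was 1.24 higher (SE 0.29), and Gna13, a G protein subunit, and Jak2, a kinase downstream of the receptor, were 1.00 (SE 0.28) and 0.78 (SE 0.23) higher. Nox4, the NADPH oxidase that the kidney expresses most, was 0.87 lower (SE 0.23), Arrb1, which takes the receptor into the cell, 0.71 lower (SE 0.21), and Agtrap, which promotes its internalisation, 0.44 lower (SE 0.14). None was called between the 2 hIRI groups, where 6 had an unadjusted p under 0.05 and Rgs2 stood at 1.16 (SE 0.29, adjusted p = 0.0694, edgeR). The 6 calls ranged from 0 to 10 when 1 library was left out and were 0 without HFD + hIRI replicate 1 or any HFD + sham replicate 1 to 3.

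Mas1 (chromosome 17, 12841005 to 12868143, minus strand) was close to the limit of detection in HFD kidneys. Its raw counts were 40, 69 and 65 in the ND + sham libraries, 12, 24 and 18 in ND + hIRI, 1, 4 and 2 in HFD + sham and 2, 1 and 3 in HFD + hIRI. That is 1.37 to 2.42 CPM in ND + sham, 0.476 to 1.12 CPM in ND + hIRI and 0.0328 to 0.172 CPM over the 6 HFD kidneys. Within each surgery every HFD kidney lay below every ND kidney. Of all genes 12.5% were lower without overlap between the sham groups and 11.5% between the hIRI groups. Each ND + hIRI kidney also lay below each ND + sham kidney, as held for 10.7% of all genes. With 7 against 174 reads, HFD + sham was 22.1-fold lower than ND + sham (95% interval 10.5 to 55.8, counting error only), and with 6 against 54 reads HFD + hIRI was 8.97-fold lower than ND + hIRI (3.86 to 25.5). The fitted log2 fold changes were -4.37 (SE 0.54, adjusted p = 0.0386, edgeR) and -3.11 (SE 0.59, adjusted p = 0.0412). Within ND kidneys 54 reads after hIRI against 174 after sham surgery gave a rate ratio of 0.400 (0.289 to 0.546), and the fitted -1.29 (SE 0.42) had an adjusted p of 0.223. Within HFD kidneys 6 against 7 reads allow a ratio from 0.274 to 3.43.

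The averaged diet difference of Mas1, -3.74 (SE 0.40, adjusted p = 0.00254), was called in all 12 fits that left out 1 library, at log2 values from -4.07 to -3.51, and it was -3.51 (adjusted p = 0.0245) without both ND libraries with low Nnt. Mas1 was in the table only through its reads in ND kidneys, a selection that favours a lower level in HFD kidneys. These fits therefore describe the reads at hand and are no independent support. The pairwise calls held in fewer fits. That in sham kidneys was lost without 9 of the 12 libraries (all but ND + hIRI replicate 1 and HFD + hIRI replicates 1 and 3, with adjusted p up to 0.311) and that in hIRI kidneys without 10 (all but ND + hIRI replicate 1 and HFD + hIRI replicate 3, up to 0.110), with log2 fold changes from -5.04 to -3.91 and from -3.52 to -2.70. Both were also lost without the pair low in Nnt (-4.22, adjusted p = 0.136, and -2.81, adjusted p = 0.157), and that in hIRI kidneys without HFD + hIRI replicate 1 and ND + hIRI replicate 1 (-3.49, adjusted p = 0.0546).

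Mas1 shares its locus with Airn (chromosome 17, 12741311 to 12859884, plus strand), a long transcript known for silencing Igf2r in cis, which runs antisense through it. The 2 genes share 0 exonic bases in the annotation, but 6 of 9 exon intervals of Mas1 lie inside the span of Airn. Whether counting used strand is unknown from the sources used here. If reads were counted without strand those of Mas1 and of unspliced Airn cannot be told apart. Airn was at 4.80, 9.97 and 7.69 CPM in ND + sham kidneys, 1.94, 1.92 and 0.960 CPM in ND + hIRI kidneys, 1.44, 0.772 and 1.70 CPM in HFD + sham and 1.03, 0.459 and 1.01 CPM in HFD + hIRI. ND + sham kidneys were thus the highest for both genes. Airn was 1.74 lower averaged over surgery in HFD kidneys (SE 0.30, adjusted p = 0.0198) and 1.44 lower averaged over diet after hIRI (SE 0.30, adjusted p = 0.0120), but the diet call was lost without ND + sham replicate 2 or any HFD + sham replicate 1 to 3 (adjusted p up to 0.0671), and without the pair low in Nnt (-1.54, adjusted p = 0.110). In hIRI kidneys the 2 differed in size, Airn at -0.96 (SE 0.44) on 54 against 110 reads and overlapping, and Mas1 at -3.11 without overlap. The part of Airn in the reads of Mas1 was not tested.

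**Figure D4:**
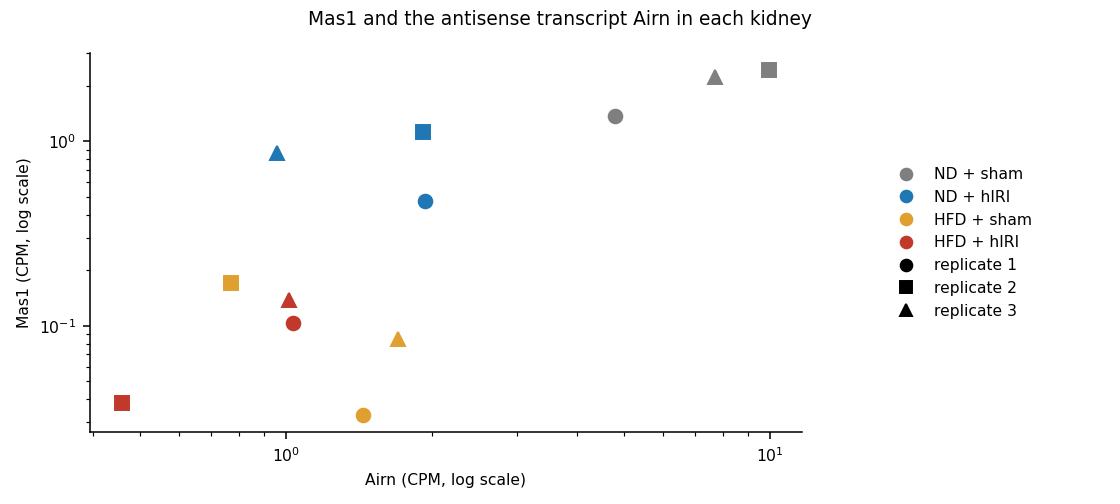
Mas1 against the antisense transcript Airn in each kidney, in CPM on log axes, coloured by group and with symbols by replicate number. The 3 ND + sham kidneys lie at the upper right, with Mas1 at 1.37 to 2.42 CPM, and the 6 HFD kidneys lie lowest in Mas1, at 0.0328 to 0.172 CPM, at Airn levels that partly overlap those of ND + hIRI.

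Atp6ap2, the (pro)renin receptor (chromosome X, 12587759 to 12617051, plus strand), varied least. It stood at 144, 124 and 134 CPM in ND + sham, 149.5, 132 and 149 CPM in ND + hIRI kidneys, 144, 142 and 152 CPM in HFD + sham and 179, 162 and 149 CPM in HFD + hIRI kidneys. All pairs of groups compared overlapped, the 4 differences lay between 0.10 and 0.18 on the log2 scale, and none was called, the averaged hIRI difference being 0.13 (SE 0.067, adjusted p = 0.165, edgeR). The proton pump of which its product is an accessory part was measured through 20 subunits. Between HFD + sham and HFD + hIRI 3 rose and 2 fell, a share near the 19.9% of all genes called, with a median of 0.14 against -0.01 for all genes. Atp6v0a1 (0.52, SE 0.13), Atp6v1b2 (0.45, SE 0.14) and Atp6v1h (0.34, SE 0.10), subunits of the pump of most cells, rose, and Atp6v1c2 (-1.17, SE 0.31) and Atp6v1b1 (-0.87, SE 0.24), the latter the subunit of the acid-secreting intercalated cell, fell. The count ranged from 0 to 7 when 1 library was left out and was 0 without HFD + hIRI replicate 1 or any HFD + sham replicate 1 to 3.

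Further enzymes and receptors of the angiotensin and kinin pathways gave 14 measured genes of 22 listed. None was called in either diet comparison within a surgery, by edgeR, with 7 at an unadjusted p under 0.05 in hIRI kidneys and 1 in sham kidneys. Between HFD + sham and HFD + hIRI 2 rose and 3 fell (19.9% of all genes called), with a median of 0.21 against -0.01 for all genes. Prep (0.42, SE 0.11) and Nln (0.41, SE 0.097), endopeptidases that cut angiotensin peptides among others, rose, while Klkb1, the gene of plasma prekallikrein, fell by 1.68 (SE 0.31), Anpep by 0.64 and Rnpep, aminopeptidase B, by 0.57 (SE 0.15). Klk1, tissue kallikrein, which frees kinin from kininogen, was 0.41 higher averaged over surgery in HFD kidneys (SE 0.089, adjusted p = 0.0368, edgeR), with means of 1481 ± 225 CPM in ND + sham, 1594 ± 56.3 CPM in ND + hIRI kidneys, 1802 ± 128 CPM in HFD + sham and 2324 ± 252 CPM in HFD + hIRI. Bdkrb2, the kinin receptor, was 1.87 higher averaged over diet after hIRI (SE 0.47, adjusted p = 0.0208) at low levels of 0.563 ± 0.0461 CPM in ND + sham, 2.36 ± 1.88 CPM in ND + hIRI kidneys, 1.53 ± 0.868 CPM in HFD + sham and 5.04 ± 2.98 CPM in HFD + hIRI, a call lost without ND + hIRI replicate 3 or HFD + sham replicate 2 or 3 (adjusted p up to 0.0541). The count of 5 calls in HFD kidneys ranged from 0 to 8 when 1 library was left out, with 0 without HFD + sham replicate 2 or 3, and the Klk1 call was lost in 8 of 12 such fits, in 3 of them by an HFD + sham replicate, in 3 by an ND + hIRI replicate and in 2 by ND + sham replicate 2 or 3.

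Renin cells and the macula densa, the cells that release renin and instruct that release, were read through 28 genes without Ren1. Between HFD + sham and HFD + hIRI 4 rose and 5 fell (19.9% of all genes called), with a median of -0.16 against -0.01 for all genes. Akr1b7, an aldo-keto reductase that marks renin cells in mice, was 3.49 higher (SE 0.55) and Crem, a responder to cyclic AMP, 2.13 higher (SE 0.44), with Aldh1a2 and Ptger4, a prostaglandin receptor, also up. Vdr, the vitamin D receptor, which represses renin transcription in mice, was 0.77 lower (SE 0.098), Adcy6, the cyclase of renin cells, 0.84 lower (SE 0.19), and Casr, the calcium-sensing receptor, Npr1, a natriuretic peptide receptor, and 1 more fell with them. Several of these genes are transcribed by tubules as well, so that the list does not count renin cells. Against ND + hIRI kidneys Vdr was 1.23 lower (SE 0.099, adjusted p = 0.000935), at 157 to 179 CPM as compared to 368 to 410.4 CPM. The 9 calls ranged from 0 to 15 when 1 library was left out and were 0 without HFD + sham replicate 2.

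The aldosterone response, the arm by which angiotensin II makes the distal nephron keep sodium, was read through 18 genes. Of these 4 fell and none rose between HFD + sham and HFD + hIRI, where 8.47% of all genes were called lower and 11.4% higher. The median of the 18 was -0.11 against -0.01 for all genes. Kcnj1, the potassium channel ROMK, was 1.01 lower (SE 0.19), Wnk1, a kinase that sets salt transport, 0.82 lower (SE 0.17), Hsd11b2, which shields the mineralocorticoid receptor from glucocorticoids, 1.51 lower (SE 0.37) and Tsc22d3, a gene induced by corticosteroids, 0.84 lower (SE 0.25). Kcnj1 was also 0.96 lower than in ND + hIRI (SE 0.19, adjusted p = 0.0447, edgeR), a call kept without HFD + hIRI replicate 3 and lost without each of the other 11 libraries. Averaged over diet 4 rose and 4 fell after hIRI (23.7% of all genes called), the risers including Nedd4l (0.63, SE 0.16), which removes the sodium channel, and Per1 (0.68, SE 0.19). The 4 calls in HFD kidneys ranged from 0 to 7 when 1 library was left out and were 0 without HFD + sham replicate 2 or 3. Of 8 adrenal cortex markers 2 were measured, Star and Mc2r, whose sum was 3.37 to 5.37 CPM in HFD + hIRI kidneys and 1.37 to 2.50 CPM in the other 9.

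The genes whose pattern over the 12 kidneys was most like that of a member were found by the root mean square difference of log2 CPM, each gene centred on its mean over the 12 libraries. For Ace, which itself varied by 0.601 around its mean, they were Bdh1 at 0.208, Slco1a1 at 0.215 and Tspan13 at 0.220. For Agt (0.485) they were Pinx1 at 0.132, Ppfibp1 at 0.159 and Slc20a2 at 0.163, and for Agtr1a (0.313) Tbck at 0.129, Dolk at 0.130 and Dlg4 at 0.134. For Mas1 (1.61) the nearest was Acsm3 at 0.761, at 497 to 1574 CPM in ND + sham, 515 to 1629 CPM in ND + hIRI and 115 to 192 CPM in the 6 HFD kidneys, followed by Itih2 at 0.949 and Selenbp2 at 1.03. Mme (0.273) had Dnah7b at 0.094, Pyurf at 0.102 and Kdm5d at 0.106, while Enpep (0.181) had Ugt2b34 and Med30 at 0.082 and Fam132a at 0.083, and Atp6ap2 (0.132) had Saraf at 0.054, Kdelr2 at 0.057 and Zfp263 at 0.058. The kidneys are the same for each pair and share their depth, so these distances describe these libraries only.

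Markers of the vessels and glomeruli, where renin cells, AT1 receptors and endothelial ACE also sit, overlapped between the 2 hIRI groups. Podocyte markers (6 of 6, led by Podxl and Synpo) summed to 351 to 423 CPM in HFD + hIRI and 303 to 438 CPM in ND + hIRI kidneys, endothelial markers (10 of 10, led by Plvap, Eng and Kdr) to 562 to 695 CPM and 559 to 680 CPM, and smooth muscle, mesangial and pericyte markers (10 of 10, led by Tagln, Pdgfrb and Acta2) to 296 to 371 CPM and 286 to 476 CPM. None of the 26 was called between these groups by edgeR or at an unadjusted p under 0.05. Between the sham groups the podocyte sum did not overlap, at 433 ± 25.7 CPM (SD, n = 3) in HFD + sham and 343 ± 12.1 CPM in ND + sham kidneys. Podxl, at a mean of 262 CPM over the 12 kidneys, weighs most in this sum. It was 0.38 higher between these groups (SE 0.16, adjusted p = 0.544, edgeR). The endothelial sum ranged from 603 to 753 CPM and from 491 to 626 CPM there, and that of smooth muscle, mesangial and pericyte markers from 242 to 306 CPM and from 171 to 304 CPM. All 10 endothelial and all 10 smooth muscle, mesangial and pericyte markers had a fitted difference above 0, with medians of 0.30 and 0.27, as had 5 of the 6 podocyte markers (median 0.27), although none was called by edgeR and 2, 2 and 1 had an unadjusted p under 0.05. The part of these levels in the sham differences of Ace and Mas1 was not tested. Immune cell markers (8 of 11, led by Csf1r, S100a9 and Ptprc) ran from 81.6 to 200 CPM and 72.2 to 130 CPM, and fat cell markers (8 of 8, led by Pnpla2, Fabp4 and Cidec) from 329 to 390 CPM and 302 to 405 CPM. In these lists and in the distal nephron markers no gene was at 0 in all libraries.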

How the data were processed

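Kidney RNA-seq libraries of 12 mice, 3 in each of 4 groups, were analysed from 1 gene table. The deposited counts per gene are whole reads that the authors aligned with STAR 2.7.10a to mm10 and counted with featureCounts (Subread 2.0.3), after FastQC 0.11.5, as the submitters' processing notes list them. The table already lacked scarce genes, and neither its filter nor the annotation and strandedness of counting was stated. The log2 CPM values that the authors deposited, their log2 fold changes, their p-values and FDR (edgeR 3.42.4) and their signed fold change, a score on a linear scale, were not used. Gene positions and lengths are those of the deposited table. All 12 libraries carry 1 batch label.

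From the counts, edgeR 4.0.16 in R 4.3.3 gave TMM-scaled CPM, RPKM and quasi-likelihood tests (robust fit, 1 mean per group, all 12 libraries, filterByExpr, which removed no gene). Each of 7 comparisons was adjusted by Benjamini-Hochberg over 14091 genes, and calls used an adjusted p under 0.05. Adjusted p-values for single genes are of this kind unless another test, covariate or set of libraries is named. The 2 averaged comparisons weigh their strata equally. Intervals on Mas1 and Airn counts cover counting error only, and each library's total limits precision for such scarce genes. The procedure was tested on simulated data.

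Alternatives were other scalings, filters, tests (edgeR likelihood ratio, DESeq2 1.42.0, limma 3.58.1 voom), a replicate block and the library number as covariate. Others were only the libraries compared, a stricter threshold and leaving out each library. The library number entered as low (404 to 408) or high (415 to 424), not as a number. Neither the labels nor the study's methods describe a pairing of mice by replicate number. In the ND samples same-numbered deviations correlated at 0.17, 0.196 and 0.197. Between the sham groups they correlated at 0.147, 0.124 and 0.0863. Between the hIRI groups they were -0.417, -0.0916 and -0.297, and within HFD kidneys 0.08, 0.00339 and -0.0976. No pair of libraries was a duplicate.

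The members and gene lists were chosen with earlier results of these data known. All measured members were described, and some genes of the lists and the results that need them are not reported here. From the other lists the text names up to 4 called genes per direction, taken by smallest p, or the 2 of smallest p where none was called, and in lists of other cell types up to 3 of the highest genes. Likeness used genes with mean log2 CPM of at least 1. Airn, Alb, Nnt and Wdfy1 were named outside this rule, after their values were seen.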

Additional observations from a re-analysis of the deposited data

Results flagged for a closer look

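Vdr, the vitamin D receptor, was the gene of the renin cell list whose response to hIRI differed between the diets. It was 0.77 lower on the log2 scale after hIRI in HFD kidneys (adjusted p = 0.0096, edgeR) and stood 0.32 higher in ND kidneys (adjusted p = 0.202), so that the difference between the responses was -1.09 (SE 0.138, adjusted p = 0.0461). HFD + hIRI kidneys held 179, 157 and 162 CPM and ND + hIRI kidneys 389, 368 and 410.4 CPM, while the sham kidneys lay between 269 and 349.9 CPM. The difference was called in 1 of 12 fits that left out a library, that without HFD + hIRI replicate 1, with adjusted p-values from 0.0410 to 0.266. It was also not called by limma voom (adjusted p = 0.0723), with the replicate block (0.175), with the library number as covariate (0.204) or without both ND libraries low in Nnt (0.547), at log2 values from -1.10 to -1.01. Under the 3 other scalings, the minimum of 10 counts, edgeR's likelihood ratio test, DESeq2 and voom with quality weights it was called.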

How the results depend on the processing

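No called difference of a renin-angiotensin gene turned its direction under any alternative run, and 40 of 1192 values that were not called turned sign while staying uncalled. Between HFD + hIRI and ND + hIRI, where 2 genes were called, 3 were called, Agt being added, by edgeR's likelihood ratio test and DESeq2. There 1 was called by limma voom or under a minimum of 10 counts per library. In that comparison 0 were called with only the libraries compared, at an adjusted p under 0.01, without HFD + hIRI replicate 1 and ND + hIRI replicate 1, and without ND + sham replicate 2 and ND + hIRI replicate 2. The last pairs were chosen after seeing the data. Between HFD + sham and ND + sham, where 1 was called, 2 were called by DESeq2, voom with quality weights and only the libraries compared, and 0 with the minimum of 10 counts, which drops Mas1, with voom, the library number as covariate, the stricter threshold or without the ND replicates 2. The replicate block also gave 0 there. Between HFD + hIRI and HFD + sham, 0 instead of 2 were called with the library number, only the libraries compared or the stricter threshold. HFD + sham replicates 1 and 2 had low library numbers and all HFD + hIRI replicates high ones. That covariate and this comparison thus cannot be fully told apart, and over all genes 12 higher and 6 lower were called with it. In other fits 3 were called, Ace being added by the minimum of 10 counts, the likelihood ratio test and DESeq2, and Agtr1a by voom with quality weights. Between ND + hIRI and ND + sham, 1 gene, Mme, was called by DESeq2, voom with quality weights and without the replicates 1 of both hIRI groups. Averaged over surgery 1 instead of 2 was called with the minimum of 10 counts, the stricter threshold and without the ND replicates 2, and averaged over diet 1 instead of 2 at the stricter threshold. Leaving out 1 library gave 0 to 3 calls between the hIRI groups, 0 to 1 between the sham groups and 0 to 3 between HFD + hIRI and HFD + sham.

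No pairing of the mice is described. In ND kidneys, where same-numbered deviations correlated most evenly, the replicate block changed no call of a member. In the other comparisons the block ended the Mas1 call between the sham groups. It added Ace after hIRI within HFD kidneys and averaged over diet. Between HFD + hIRI and HFD + sham the median of all genes was -0.006 under TMM, and -0.116 and -0.172 under upper quartile scaling and library totals. The calls went from 1607 higher and 1194 lower to 1052 and 1621 and to 852 and 2112. Library totals put the median at -0.114 between the hIRI groups, where calls went from 75 higher and 115 lower to 34 and 152 (37 and 82 by upper quartile). Averaged over diet it was -0.108 under library totals, and calls went from 1814 and 1531 to 1114 and 2441 (1302 and 1974 by upper quartile). Averaged over surgery they went from 155 and 232 to 95 and 279 by library totals and to 128 and 203 by upper quartile. Ace was called between HFD + hIRI and HFD + sham under both. Over all settings and left-out libraries, calls among all genes ranged between the hIRI groups from 0 higher and 0 lower (only the libraries compared) to 1473 and 1086 (without HFD + hIRI replicate 3), and between the sham groups from 0 and 0 to 158 and 148 (voom with quality weights). They ranged within HFD kidneys from 1 and 0 (without HFD + sham replicate 2) to 2949 and 2844 (voom with quality weights) and within ND kidneys from 0 and 0 to 1295 and 1027 (without replicate 1 of both hIRI groups). For the interaction the range was 0 and 0 to 22 and 15 (DESeq2), averaged over surgery 7 and 23 (without both ND libraries low in Nnt) to 762 and 707 (without HFD + hIRI replicate 3), and averaged over diet 533 and 409 to 2861 and 2805 (the same pair left out, and voom with quality weights). With 3 kidneys a group, counts as low as those of Mas1 in HFD kidneys set no level beyond a few reads.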
